A study of Mus musculus with 24 samples.

Results

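Non-induced organoids of the mouse colon (COL) were compared with non-induced organoids of the small intestine (SI) by RNA sequencing. The comparison took every library labelled off, which was 12 of the 24 libraries of the series, 6 per tissue. The 2 off libraries of a genotype came from 1 donor culture and were summed, so that 3 COL cultures stood against 3 SI cultures. All cultures were of the strain C57BL/6N and carried Villin::CreERT2, a tamoxifen-activated Cre recombinase driven by the Villin promoter in intestinal epithelium. In each tissue the BRAF culture had the genotype BraffloxV600E/+, the p53 culture Trp53LSL-R172H/+ and the BRAFp53 culture both alleles. All 12 libraries came from organoids given ethanol for 24 hours in place of 4-hydroxytamoxifen. Without recombination the conditional Braf allele gives wild-type protein, and the stop cassette of the p53 allele leaves 1 working Trp53 copy. The labels give no age of the animals.

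Several things differed together with the tissue. RNA was isolated on day 3 from COL and on day 8 from SI organoids. Per the methods of the study, the small intestinal tissue was the proximal part, and the medium of COL organoids additionally held Wnt3a and CHIR99021, an inhibitor of GSK3 that switches on Wnt signalling. The tissue, the medium, the day and the donor animals cannot be told apart in this design. The design text counts 3 donor mice per tissue, while the methods of the study speak of 3 donor mice, 1 per genotype, without a number per tissue, so that the sources leave unclear whether COL and SI cultures of a genotype came from 1 mouse. COL p53 and COL BRAFp53 held Y-linked transcripts, while SI p53 and SI BRAFp53 held Xist and none of those read, so these pairs did not show the same sex. Each culture stood for 1 donor, and its 2 libraries measured the spread of handling.

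Depth, in units of 1e6 counts per library, was 55.0 to 68.9 in COL (median 61.5) and 45.0 to 66.5 in SI (median 56.3). Levels are the counts of a culture per 1e6 of its library total times its TMM normalization factor (CPM), always in the order BRAF, p53 and BRAFp53, and 3 counts in a culture corresponded to 0.0213 to 0.0311 CPM. The 10 epithelial markers summed to 15500 to 28300 CPM in COL and 17800 to 20000 CPM in SI, against 14.8 to 20.1 and 22.0 to 36.7 CPM for 24 stromal, endothelial and immune markers, of which 10 passed the filter on low counts. Of those 10, edgeR called 0 and DESeq2 called 2, both higher in SI, and 2 had an unadjusted p under 0.05 in edgeR. Of the 24, edgeR called 2 higher in COL without the COL p53 culture and 2 higher in SI without the COL BRAF culture. With the genotype as a block it called 1, higher in SI. The highest of the 24 was Lyve1, a marker of lymphatic vessels and macrophages, at 10.3, 4.14 and 6.87 CPM in COL and 24.7, 12.7 and 12.5 CPM in SI, and Itgam, a myeloid marker, was at 3.24, 2.49 and 2.93 and 6.85, 3.6 and 2.91 CPM. Vim and Pdgfrb, of mesenchymal cells, were read at 1 to 4 CPM in every culture. Of fibroblast markers Col1a2 was at 0 counts in most cultures, while Col1a1 was at 0.195, 0.0354 and 0.616 CPM in COL and 0.0103, 0.0253 and 0 CPM in SI. Of endothelial markers Cdh5 was at 0 counts in most cultures, while Pecam1 was read in all 6, at 0.335, 0.709 and 0.433 and 0.145, 0.867 and 0.402 CPM. The T cell marker Cd3e was at 0 counts in most. Y-linked transcripts were read in 3 of 3 COL cultures but in 1 of 3 SI cultures: Ddx3y stood at 60.5, 60.8 and 66.5 CPM in COL and 37.2, 0 and 0 CPM in SI, and Xist at 0, 0.0213 and 0.022 and 0.404, 142 and 163 CPM. The part of donor sex in the results was not tested, and 31.0% of the 542 X-linked genes tested were called, against 29.6% of all genes.

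The intestinal epithelium renews itself from Lgr5-positive stem cells at the crypt base, which give rise to absorptive cells and to secretory goblet, Paneth, enteroendocrine and tuft cells. In the small intestine absorptive enterocytes carry digestive hydrolases on their brush border and take up sugars, amino acids and fat, whereas colonocytes mainly absorb water, salt and short-chain fatty acids and lie under a thick mucus layer made by goblet cells. Position along the gut is encoded by Hox and Cdx genes and by regional factors such as Gata4 in the proximal small intestine, and organoids are known to keep much of this regional identity in culture.

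Of 17789 genes tested, 5270 (29.6%) were called at an adjusted p under 0.05 in edgeR's quasi-likelihood test. Of all genes tested 3022 (17.0%) were higher in COL and 2248 (12.6%) were higher in SI, and the counts of list members below stand against these shares. The median absolute log2 fold change of the calls was 1.48, and 3470 calls reached an absolute log2 fold change of 1. Scaling by library totals alone shifted the median log2 fold change of all genes from 0.08 to 0.33 and the split to 4567 higher in COL and 1411 higher in SI. With the genotype as a block over the COL and SI pairs 3475 genes were called. Leaving out the SI p53 culture left 2479 calls and leaving out the SI BRAFp53 culture 2781, of which 2423 and 2694 were shared with the full comparison and 0 had the opposite sign. In 166 of the called genes the SI cultures had no count at all, and in 20 the COL cultures had none. On the first principal component, which held 76.6% of the variance over 12457 genes, all 6 COL libraries were separated from all 6 SI libraries.

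The labels were checked against defining genes of each region, with a mixed outcome. Of 5 small intestinal genes, 3 were called higher in SI. Lactase (Lct), which splits milk sugar, was at 64.9, 37 and 20 CPM in SI and 0.156, 0.156 and 0.117 CPM in COL (log2 fold change -8.14 ± 0.55 SE, adjusted p = 0.000817). Apolipoprotein A-IV (Apoa4) had 326, 656 and 826 CPM in SI and 8.35, 0.964 and 1.42 CPM in COL (log2 fold change -7.40 ± 1.04 SE, adjusted p = 0.00392). Fabp2, an intestinal fatty acid carrier, was detected in all cultures and was 8.9-fold higher in SI by the means. Gata4, the factor of the proximal small intestine, was high in all 3 SI cultures at 84.6, 122 and 103 CPM but also in the COL BRAF culture, with 48.5, 1.48 and 2.31 CPM in COL, and was not called in edgeR (log2 fold change -2.57 ± 1.23 SE, adjusted p = 0.157). In limma-voom with all cultures Gata4 was called higher in SI. The Paneth cell defensin Defa24, at 176, 116 and 323 CPM in COL and 199, 69.8 and 67.2 CPM in SI, overlapped between the tissues.

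Colonic genes were likewise called in part. Carbonic anhydrase 1 (Car1), which hydrates carbon dioxide in colonocytes, had 1413, 16840 and 4087 CPM in COL and 0 counts in all 3 SI cultures, and its mean was at least 257973-fold higher in COL against a floor of 3 counts per culture (adjusted p = 0.00342). Car4 had 2.25, 105 and 29.1 CPM in COL and 4.25, 3.14 and 0.885 CPM in SI, with the COL BRAF culture inside the range of SI, and was not called in edgeR (adjusted p = 0.0501). DESeq2 called it higher in COL. The chloride exchanger Slc26a3, a marker of surface colonocytes, had 24.4, 76.9 and 14.1 CPM in COL and 116, 132 and 138 CPM in SI, and the difference missed the threshold in edgeR (log2 fold change -1.74 ± 0.58 SE, adjusted p = 0.0595). DESeq2 and limma-voom called Slc26a3 higher in SI. Hoxb13, a gene of the most distal gut, had 0.242, 0.149 and 0 CPM in COL, 0 counts in SI, and did not pass the filter. Car1 thus marked the COL cultures, while Slc26a3 and Hoxb13 did not.

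**Figure D1:**
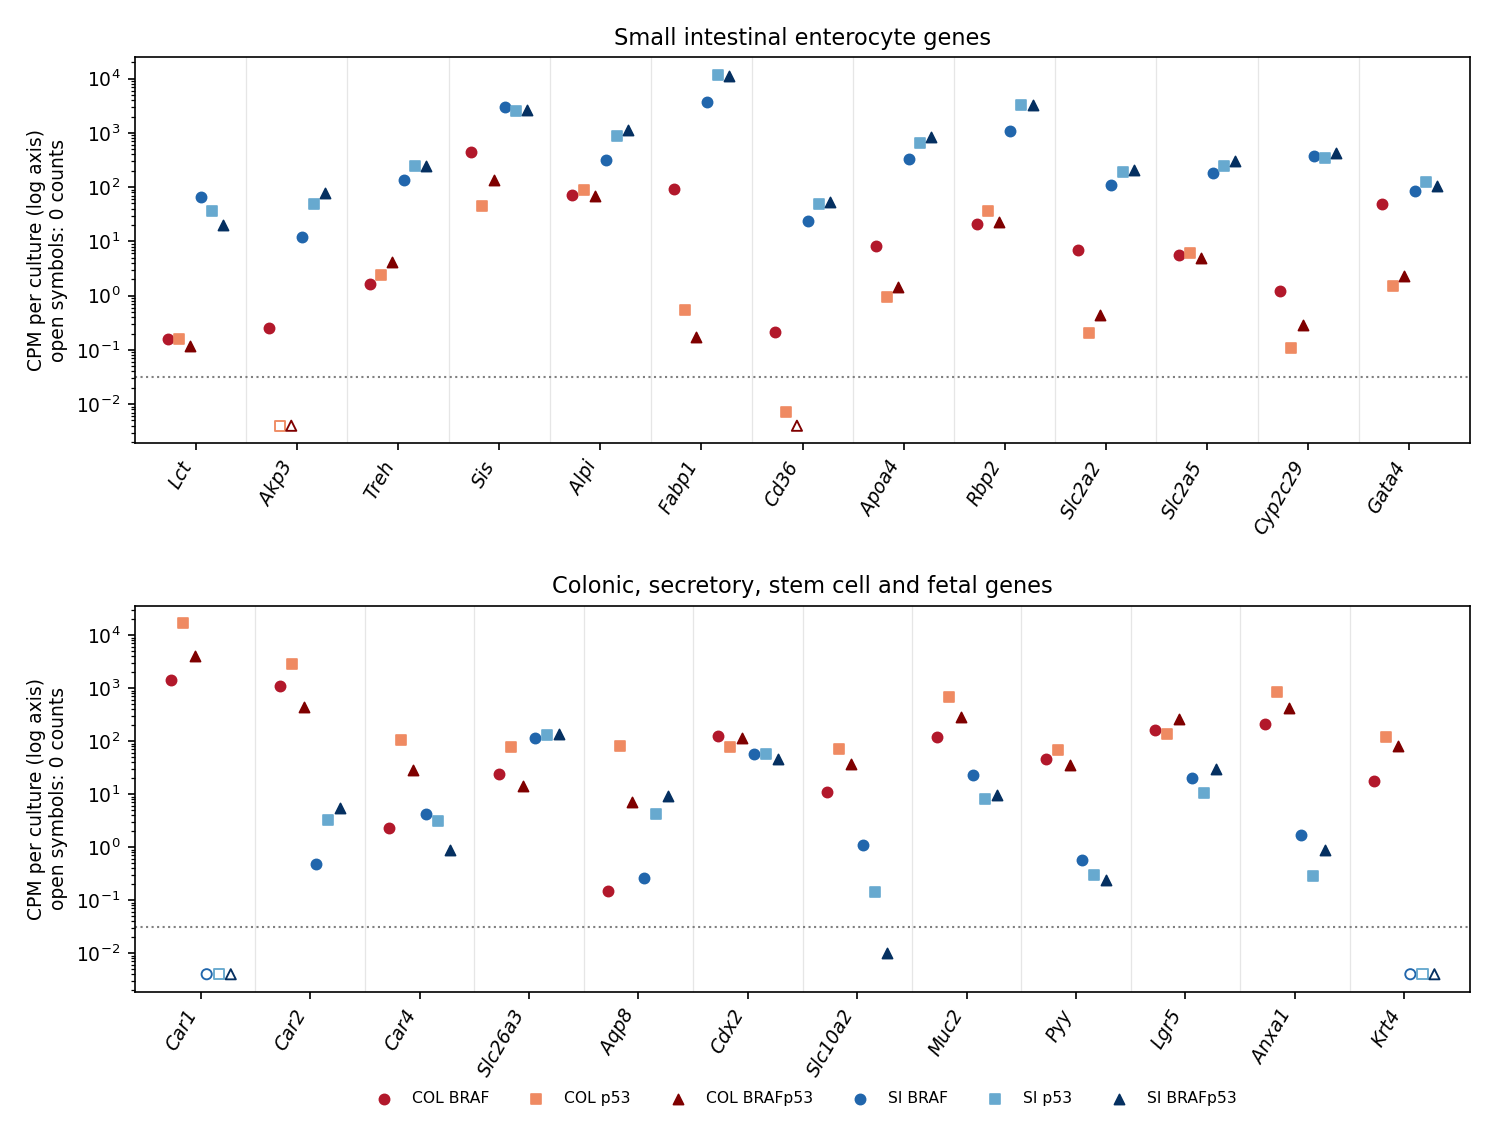
CPM per culture on a log axis for small intestinal enterocyte genes (top) and for colonic, secretory, stem cell and fetal genes (bottom), with COL cultures in red and SI cultures in blue. Open symbols at the bottom edge mark 0 counts and the dotted line marks 3 counts in the shallowest culture, 0.0311 CPM. The SI cultures lie above the COL cultures for all 13 genes in the top panel, and Car1 and Krt4 have 0 counts in every SI culture.

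Promoters of 5 genes that differed between the tissues are shown because they carry sequence letters of regional factors. They are the 250 bases before the RefSeq start on build GRCm38.p6, written 5′ to 3′ on the strand of the gene, from chr1:128328319-128328568 (minus) for Lct, chr3:72967864-72968113 (minus) for sucrase-isomaltase (Sis), chr6:71199629-71199878 (plus) for Fabp1, chr7:141690090-141690339 (plus) for the mucin Muc2 and chr11:96281655-96281904 (plus) for Hoxb8. Capitals mark AGATAA (bound by GATA factors), TTTATG (CDX factors), CAAAGTCCA (HNF4A) or GTTAAT (HNF1), searched on both strands, so that a match on the opposite strand reads as its reverse complement.
Lct: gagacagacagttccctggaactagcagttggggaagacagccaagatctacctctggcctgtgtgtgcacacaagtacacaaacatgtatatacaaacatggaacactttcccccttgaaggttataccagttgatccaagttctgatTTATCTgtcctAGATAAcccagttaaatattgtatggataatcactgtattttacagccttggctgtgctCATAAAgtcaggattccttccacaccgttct
Sis: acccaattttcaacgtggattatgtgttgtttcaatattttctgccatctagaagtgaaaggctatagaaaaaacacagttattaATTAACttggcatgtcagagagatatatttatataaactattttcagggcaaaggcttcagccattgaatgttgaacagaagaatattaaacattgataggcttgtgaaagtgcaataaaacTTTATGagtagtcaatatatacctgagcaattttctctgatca
Fabp1: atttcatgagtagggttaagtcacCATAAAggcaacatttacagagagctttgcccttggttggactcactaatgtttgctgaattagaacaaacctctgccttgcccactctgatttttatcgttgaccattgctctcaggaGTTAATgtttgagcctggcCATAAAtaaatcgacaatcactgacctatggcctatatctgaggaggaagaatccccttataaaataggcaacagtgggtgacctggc
Muc2: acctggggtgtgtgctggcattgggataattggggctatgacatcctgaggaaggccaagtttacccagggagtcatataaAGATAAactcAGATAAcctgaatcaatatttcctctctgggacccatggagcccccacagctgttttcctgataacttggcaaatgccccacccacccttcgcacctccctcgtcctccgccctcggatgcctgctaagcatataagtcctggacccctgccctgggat
Hoxb8: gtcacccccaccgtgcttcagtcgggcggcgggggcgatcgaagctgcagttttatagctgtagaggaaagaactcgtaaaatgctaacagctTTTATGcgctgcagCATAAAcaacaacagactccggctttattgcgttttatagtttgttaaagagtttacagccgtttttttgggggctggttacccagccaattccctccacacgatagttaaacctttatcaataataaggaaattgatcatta
The Lct window held AGATAA ending 85 and 96 bases before the start, on opposite strands, and TTTATG ending 26 bases before it. Sis, which was higher in SI, and Hoxb8, which was higher in COL, both held TTTATG, and the window of Muc2, a gene higher in COL, held AGATAA at 2 places.

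Such short letters are common, and genes higher in either tissue held them. A start in the table was matched for 11563 of the tested genes, and 6.46% of their windows held AGATAA, against 7.53% of the 1633 windows of genes higher in SI and 6.36% of the 2138 windows of genes higher in COL. For TTTATG the shares were 6.3%, 7.47% and 6.83%. The longer CAAAGTCCA was rarer, at 0.432% of all windows, 1.16% of those higher in SI (19 windows) and 0.234% of those higher in COL (5 windows). GTTAAT stood at 4.2%, 5.45% and 3.7%. These shares are a description of the windows and were not tested, and a match is not evidence of binding.

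Digestive hydrolases of the brush border were higher in SI. Of 22 members tested, 16 were called higher in SI and 0 in COL, with a median log2 fold change of -2.16, and the summed level was 6970 to 7400 CPM in SI against 1160 to 1570 CPM in COL. Sis, which digests sucrose and starch fragments, was at 3033, 2515 and 2679 CPM in SI and 439.7, 45.8 and 136 CPM in COL (log2 fold change -3.73 ± 0.77 SE, adjusted p = 0.0129). In COL it was highest in the BRAF culture. Trehalase (Treh) had 138, 241 and 250.3 CPM in SI and 1.65, 2.38 and 4.15 CPM in COL (log2 fold change -6.26 ± 0.46 SE, adjusted p = 0.000871), and the tissues did not overlap, as in 50.6% of all genes tested. The phosphatase gene Akp3 was at 12.1, 48 and 77.5 CPM in SI and 0.249, 0 and 0 CPM in COL, with 0 counts in 2 COL cultures (log2 fold change -9.13 ± 1.43 SE, adjusted p = 0.00531). Its relative Alpi, intestinal alkaline phosphatase, was 10.2-fold higher in SI. The meprin subunit Mep1b was higher in SI (log2 fold change -0.97 ± 0.28 SE, adjusted p = 0.0374) but was not called without any 1 of the COL BRAF, COL BRAFp53, SI BRAF, SI p53 or SI BRAFp53 cultures (adjusted p of 0.0601 to 0.123), nor was Sis without the COL BRAFp53 culture (0.0541).

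Genes of fat, sterol and vitamin A uptake had the lowest median of the lists. Of 25 members, 20 were higher in SI and 0 in COL, with a median log2 fold change of -3.15, and the summed level was 13000 to 27600 CPM in SI against 1180 to 1620 CPM in COL. The fatty acid binding protein gene Fabp1 had 3779, 11892 and 11136 CPM in SI and 92.5, 0.538 and 0.176 CPM in COL (log2 fold change -8.17 ± 2.45 SE, adjusted p = 0.0437), so that the COL cultures spanned a wider range than the SI cultures on a log scale and the BRAF culture stood above the other COL cultures. Rbp2, which carries retinol in enterocytes, had 1091, 3313 and 3306 CPM in SI and 20.5, 36.1 and 22.9 CPM in COL (log2 fold change -6.60 ± 0.56 SE, adjusted p = 0.00117). The fatty acid transporter Cd36 was at 23.5, 49 and 53.4 CPM in SI and 0.21, 0.00709 and 0 CPM in COL (log2 fold change -9.20 ± 1.13 SE, adjusted p = 0.0028). Both were separated between the tissues by more than the spread of the cultures. Mttp, which loads fat onto nascent chylomicrons, was 19.1-fold higher in SI by the means, and the sterol importer Npc1l1 was 17.1-fold higher, each with the COL BRAF culture nearest to SI. Not called were 5 members, among them the lipoprotein receptor Scarb1, with 88.9, 60.4 and 38.2 CPM in COL and 3.4, 28.6 and 35.1 CPM in SI (adjusted p = 0.175). Fabp1 was not called without any 1 culture apart from COL BRAF (adjusted p of 0.0621 to 0.0961), nor Npc1l1 without the COL BRAFp53 or SI p53 culture (0.0518 to 0.053).

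Of 25 small intestinal nutrient and metal transporters tested, 14 were higher in SI and 3 in COL, with a median log2 fold change of -1.57. Without the SI p53 culture, 9 were called higher in SI. The fructose transporter Slc2a5 was at 182, 249.8 and 300.0 CPM in SI and 5.59, 6.17 and 4.89 CPM in COL (log2 fold change -5.46 ± 0.24 SE, adjusted p = 0.000319), a difference far beyond the spread of the cultures. The neutral amino acid transporter Slc6a19 had 109, 197 and 190.3 CPM in SI and 2.11, 12.3 and 17.3 CPM in COL (log2 fold change -3.97 ± 0.73 SE, adjusted p = 0.00874). The sodium-glucose transporter Slc5a1 was read in both tissues and was 5.54-fold higher in SI. Ferroportin (Slc40a1), which exports iron from the epithelium to the blood, went the other way, at 228, 259 and 161 CPM in COL and 11.9, 13.3 and 34.2 CPM in SI (log2 fold change 3.45 ± 0.46 SE, adjusted p = 0.00336). The zinc importer Slc39a4 and the nucleoside transporter Slc28a2 were the other members higher in COL, the former not called without any 1 of the SI cultures (adjusted p of 0.0646 to 0.0801).

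Xenobiotic metabolism was the largest list and had 41 of 52 tested members higher in SI and 2 higher in COL, with a median log2 fold change of -1.75. Its summed level was 26400 to 42600 CPM in SI and 5060 to 9820 CPM in COL. Cyp3a11, a drug-oxidising cytochrome P450, was at 166, 305 and 410.3 CPM in SI and 2.04, 2.71 and 4.97 CPM in COL (log2 fold change -6.50 ± 0.52 SE, adjusted p = 0.00107). Cyp2b10 had 1041, 1367 and 1482 CPM in SI and 54.3, 2.69 and 3.03 CPM in COL (log2 fold change -6.02 ± 1.33 SE, adjusted p = 0.016), with the COL BRAF culture above the other COL cultures. The exceptions were 2. Cyp2c55 had 793, 1876 and 539.7 CPM in COL and 190.2, 204 and 293 CPM in SI (log2 fold change 2.22 ± 0.47 SE, adjusted p = 0.0137), and Cyp1b1 had 0.912, 18.9 and 9.28 CPM in COL and 0, 0.109 and 0 CPM in SI. Without the SI p53 culture Cyp2c55 was not called (adjusted p = 0.0601). Members of the Cyp2c, Ugt and Ces families have near-identical copies, and their counts could be split or shared by the counting, which is not described in that detail. Of 12 genes of the urea cycle and arginine metabolism, 5 (41.7%) were higher in SI and 2 (16.7%) in COL, against 12.6% and 17.0% of all genes tested. Ornithine transcarbamylase was among those higher in SI (Otc, log2 fold change -2.60 ± 0.25 SE, adjusted p = 0.00151). Ass1, which makes argininosuccinate, was higher in COL, at 29.6, 39.6 and 30.8 CPM against 8.57, 10.7 and 12.9 CPM in SI. Without any 1 of the COL BRAFp53, SI p53 or SI BRAFp53 cultures 3 of the 12 were higher in SI, and without the COL BRAF culture 7 were.

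Hox genes, which encode position along the body axis, were higher in COL. Of 39 Hox genes 20 passed the filter, 12 of these were higher in COL and 0 in SI, and their median log2 fold change was 5.20. The 3 COL cultures had a summed Hox level of 244 to 322 CPM and the SI cultures 4.76 to 23.5 CPM. In 17 of the 20 all COL cultures lay above all SI cultures, against 27.6% of all genes tested. The B cluster had the clearest split: Hoxb9 was at 42.5, 68.1 and 78.1 CPM in COL and 0.197, 0 and 0 CPM in SI (log2 fold change 9.97 ± 1.04 SE, adjusted p = 0.00186). Hoxb7 had 21, 20.2 and 24.5 CPM in COL and 0.166, 0.0505 and 0 CPM in SI (log2 fold change 8.25 ± 0.81 SE, adjusted p = 0.00157), and Hoxb8 1.45, 3.02 and 3.96 CPM and 0.0414, 0 and 0 CPM. The SI cultures were at or near 0 in all 3 genes, and among the COL cultures the BRAF culture was lowest in Hoxb9 and Hoxb8.

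In the A cluster the cultures varied. Hoxa10 was at 116, 103 and 17.2 CPM in COL and 0.0103, 0.615 and 4.54 CPM in SI (log2 fold change 5.51 ± 1.51 SE, adjusted p = 0.0326), with the COL BRAFp53 culture lowest in COL and the SI BRAFp53 culture highest in SI. It was not called without the COL BRAF, COL p53 or SI p53 culture (adjusted p of 0.0593 to 0.113). Hoxa7 had 37.8, 44 and 45.7 CPM in COL and 0, 0.564 and 8.91 CPM in SI, and Hoxa9 had 46.9, 35.6 and 17.4 CPM and 0, 0.673 and 4.52 CPM. Neither was called in edgeR (adjusted p = 0.104 and 0.0575), though both were in limma-voom. The tissues did not overlap in either gene, as in 50.6% of all genes tested, and the SI cultures spanned from 0 counts to several CPM. Hoxa13, a gene of the hindgut end, was read at 13.1, 2.15 and 0 CPM in COL and at 0 in SI and did not pass the filter. Hoxa4, a gene nearer to the front of the cluster, was at 0.491, 0.397 and 0.624 CPM in COL and 0.58, 1.22 and 0.513 CPM in SI and was not called (adjusted p = 0.356). The C cluster had at most a few counts in any culture. Where 10 counts were required in every culture, 1 Hox gene was called, since the SI cultures had too few counts.

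**Figure D2:**
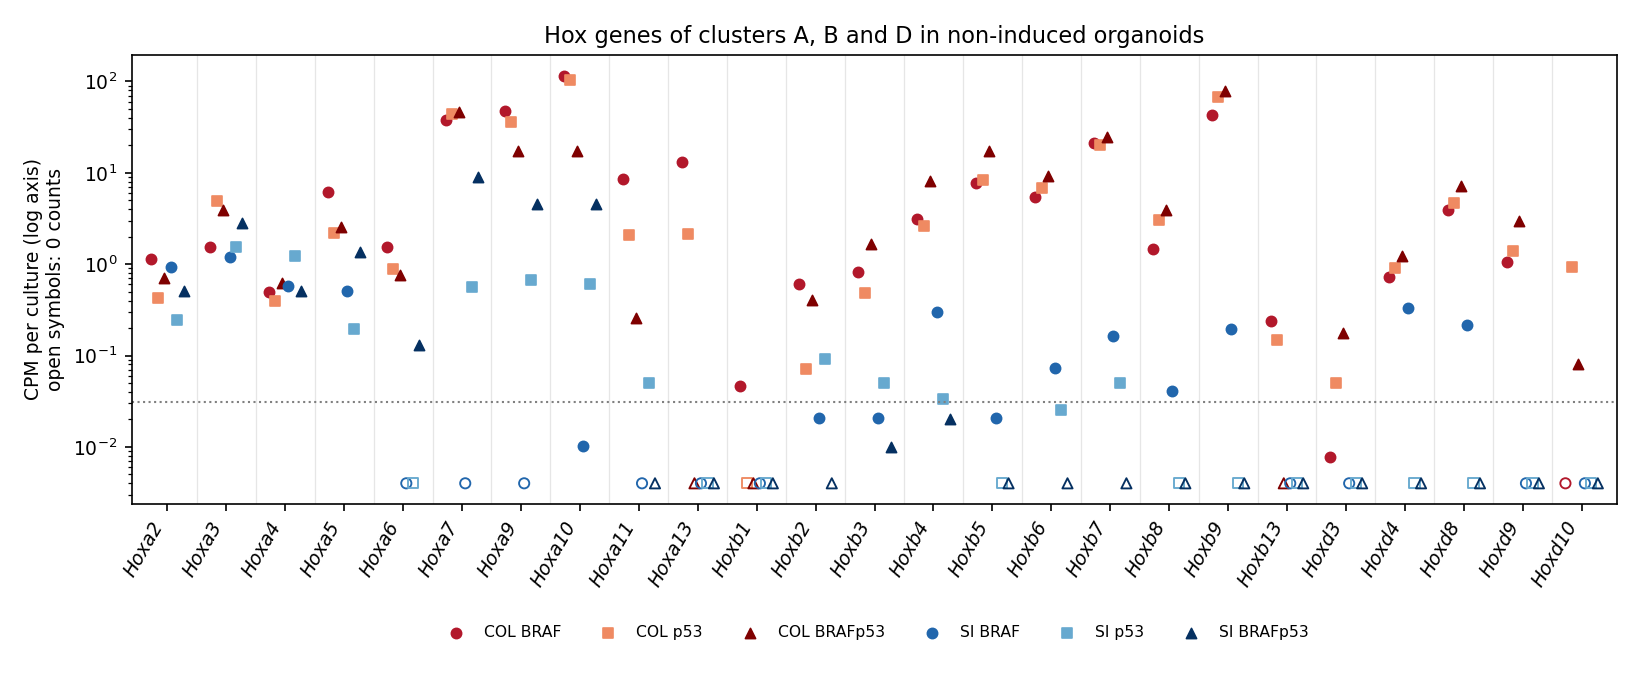
CPM per culture on a log axis for Hox genes of clusters A, B and D that were above 3 counts in at least 1 culture, COL in red and SI in blue. Open symbols mark 0 counts and the dotted line is 0.0311 CPM. The red symbols of Hoxb3 to Hoxb9 lie above all blue symbols, while those of Hoxa2 to Hoxa4 lie close to the blue ones.

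Intestinal transcription factors outside the Hox clusters were divided, with a median log2 fold change of 0.03. Of 34 tested, 10 (29.4%) were higher in COL and 6 (17.6%) in SI, against 17.0% and 12.6% of all genes tested. Without the SI p53 culture 4 were called higher in COL, and without the SI BRAFp53 culture 5. Cdx2, the master regulator of intestinal identity, was at 124, 78.2 and 116 CPM in COL and 57, 56.7 and 45.1 CPM in SI (log2 fold change 1.0 ± 0.20 SE, adjusted p = 0.0115). Its relative Cdx1 had 90.1, 45.2 and 81.7 CPM in COL and 128, 119 and 99.7 CPM in SI and was not called (adjusted p = 0.0903). The tissues did not overlap in either gene, as in 50.6% of all genes tested, and their order was opposite. Creb3l3, a factor of lipid metabolism, had 237, 414 and 386 CPM in SI and 19.2, 8.73 and 5.14 CPM in COL (log2 fold change -4.97 ± 0.55 SE, adjusted p = 0.00207), and Hnf4g, an enterocyte factor, had 125, 184 and 208 CPM in SI and 16, 32.8 and 34.7 CPM in COL (log2 fold change -2.63 ± 0.34 SE, adjusted p = 0.00314). The fatty acid sensing receptor Ppara was also higher in SI (log2 fold change -3.13 ± 0.51 SE, adjusted p = 0.00604), and its relative Pparg was higher in COL (log2 fold change 1.98 ± 0.44 SE, adjusted p = 0.0163). Pparg was not called without any 1 of the SI cultures (adjusted p of 0.0506 to 0.0635), nor Cdx2 without the SI BRAFp53 culture (0.0543). Hnf4a, shared by both regions, was at 617, 634 and 500.3 CPM in COL and 561, 543 and 494 CPM in SI and was not called (log2 fold change 0.13 ± 0.15 SE, adjusted p = 0.544).

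Genes of colonic ion, water and short-chain fatty acid handling did not move one way. Of 27 tested, 7 (25.9%) were higher in COL and 5 (18.5%) in SI, against 17.0% and 12.6% of all genes tested. The median log2 fold change was 0.24, and 4 were higher in COL without the SI p53 or the SI BRAFp53 culture. Car2, a further carbonic anhydrase, was at 1117, 2789 and 435 CPM in COL and 0.476, 3.32 and 5.51 CPM in SI (log2 fold change 8.86 ± 1.23 SE, adjusted p = 0.00377). It varied several-fold among the COL cultures. Guca2b (uroguanylin), a hormone of salt secretion, was higher in SI, with 598, 506 and 513 CPM against 43, 54.8 and 50.9 CPM (log2 fold change -3.44 ± 0.16 SE, adjusted p = 0.000319). The metallothioneins Mt1 (log2 fold change -2.42 ± 0.17 SE, adjusted p = 0.000839) and Mt2 (log2 fold change -2.53 ± 0.18 SE, adjusted p = 0.000839), which bind zinc and copper, were higher in SI as well. The water channel Aqp8 had 0.148, 79.3 and 6.97 CPM in COL and 0.259, 4.15 and 9.37 CPM in SI, and the tissues overlapped. Of 7 genes of ileal bile acid handling, 2 (28.6%, against 17.0% of all genes tested) were higher in COL. These were the bile acid importer Slc10a2, at 11.2, 69.5 and 37.3 CPM in COL and 1.1, 0.143 and 0.0101 CPM in SI (log2 fold change 6.58 ± 1.34 SE, adjusted p = 0.012), and the hormone Fgf15, at 3.29, 11.2 and 6.21 CPM in COL and 0.694, 0.0589 and 0.111 CPM in SI. Nr0b2, a bile acid induced repressor, was higher in SI (log2 fold change -6.20 ± 1.47 SE, adjusted p = 0.0203). Of these, Slc10a2 was not called without the SI p53 culture (adjusted p = 0.0521), Fgf15 without the SI BRAFp53 culture (0.0542) and Nr0b2 without the COL BRAFp53 or SI p53 culture (0.0538 to 0.0659).

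Goblet cell genes were higher in COL: 19 of 26 tested were called higher in COL and 0 in SI, with a median log2 fold change of 1.95, and 11 were called without the SI p53 culture. In bulk RNA, fewer cells of a type and less RNA per cell cannot be told apart. Muc2, the main secreted mucin, was at 117, 669 and 286 CPM in COL and 23.2, 8.09 and 9.8 CPM in SI (log2 fold change 4.70 ± 0.76 SE, adjusted p = 0.0057). Atoh1, which commits cells to the secretory lineage, had 13.8, 25.8 and 24.3 CPM in COL and 4.87, 1.48 and 2.18 CPM in SI (log2 fold change 2.91 ± 0.49 SE, adjusted p = 0.00662). Kit, a marker of deep crypt secretory cells in the colon, had 25.8, 37 and 46.7 CPM in COL and 4.76, 4.33 and 4.14 CPM in SI (log2 fold change 3.05 ± 0.24 SE, adjusted p = 0.00107). In each of these 3 genes the lowest COL culture was above the highest SI culture, as in 27.6% of all genes tested. The mucus proteins Fcgbp and Zg16 and the membrane mucin Muc13 were among the 7 not called, with adjusted p of 0.555, 0.0644 and 0.278.

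Tuft and enteroendocrine cell genes were also found more often higher in COL. Of 13 tuft cell genes tested 7 were higher in COL and 0 in SI (median log2 fold change 1.78), and the kinase gene Dclk1 was at 20.8, 17.9 and 18.4 CPM in COL and 3.76, 3.53 and 4.54 CPM in SI (log2 fold change 2.27 ± 0.18 SE, adjusted p = 0.00103). Of 23 enteroendocrine genes 9 were higher in COL and 1 in SI (median 1.16), with 4 higher in COL without the SI p53 culture. Peptide YY (Pyy), a hormone of distal L cells, was at 45.3, 66.6 and 35.6 CPM in COL and 0.58, 0.295 and 0.241 CPM in SI (log2 fold change 7.05 ± 0.45 SE, adjusted p = 0.000817), and Gcg, which encodes the GLP-1 precursor of the same cells, was at 38.7, 74.5 and 67.4 CPM and 8.06, 7.54 and 7.1 CPM (log2 fold change 2.99 ± 0.26 SE, adjusted p = 0.00122). Gip, a hormone of proximal K cells, had the opposite order, with 19.8, 26.4 and 34.3 CPM in SI and 1.79, 0 and 0 CPM in COL (log2 fold change -5.50 ± 1.71 SE, adjusted p = 0.0489). The pan-endocrine gene Chga was 3.66-fold higher in COL, whereas the somatostatin gene Sst was not called (adjusted p = 0.0934). Gip was not called without any 1 culture apart from COL BRAF (adjusted p of 0.0637 to 0.118), nor Chga without the SI p53 culture (0.0504).

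Paneth cells are known from the small intestine and not from the normal colon, and of 22 tested Paneth cell genes 6 (27.3%, against 17.0% of all genes tested) were higher in COL and 1 in SI, with a median log2 fold change of 0.48. In both directions together the 31.8% called were near the 29.6% of all genes. Without the SI BRAF culture 9 were higher in COL and 0 in SI. Leaving out the COL BRAF or the COL p53 culture gave 5 and 6 higher in COL, and 2 higher in SI each time. Lysozyme (Lyz1) was at 288, 1017 and 1105 CPM in COL and 149.5, 61.9 and 87.6 CPM in SI (log2 fold change 3.01 ± 0.57 SE, adjusted p = 0.00949). Matrilysin (Mmp7), which activates defensins, had 145, 127 and 129 CPM in COL and 6.32, 1.43 and 2.16 CPM in SI (log2 fold change 5.34 ± 0.59 SE, adjusted p = 0.00207), and the ribonuclease Ang4 had 39, 84.3 and 43.6 CPM and 5.87, 1.1 and 2.28 CPM (log2 fold change 4.17 ± 0.67 SE, adjusted p = 0.00552). The SI BRAF culture was highest of the SI cultures in all 3 genes. The alpha-defensins, which are near-identical copies and were counted with that uncertainty, overlapped between the tissues apart from the related Gm14851, which was higher in SI at 17.8, 4.33 and 4.52 CPM against 0.92, 0 and 0.367 CPM (log2 fold change -4.37 ± 1.35 SE, adjusted p = 0.0479). Gm14851 was not called without any 1 of the COL BRAFp53, SI BRAF, SI p53 or SI BRAFp53 cultures (adjusted p of 0.082 to 0.137).

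Stem cell and Wnt target genes were higher in COL organoids. Their medium held Wnt3a and CHIR99021, and its part cannot be told apart from the tissue, the day and the donor. Of 30 tested, 18 were higher in COL and 1 in SI, with a median log2 fold change of 1.32, and 10 were called higher in COL without the SI p53 or without the SI BRAFp53 culture and 11 without the COL BRAFp53 culture. The stem cell receptor Lgr5 was at 164, 135 and 257 CPM in COL and 20.5, 10.5 and 30.4 CPM in SI (log2 fold change 3.18 ± 0.43 SE, adjusted p = 0.00354). The Wnt feedback ligase Rnf43 had 130.1, 126 and 157 CPM in COL and 36.2, 26.7 and 30.8 CPM in SI (log2 fold change 2.14 ± 0.16 SE, adjusted p = 0.000988), and Axin2, a negative feedback gene of the pathway, 49.3, 41.1 and 88 CPM and 32.9, 22.3 and 22.3 CPM (log2 fold change 1.20 ± 0.31 SE, adjusted p = 0.0278). The tissues did not overlap in these genes, as in 50.6% of all genes tested. Olfm4, a small intestinal stem cell marker, was the 1 member higher in SI, at 230.3, 172 and 214 CPM against 31.3, 2.08 and 23.2 CPM (log2 fold change -3.44 ± 0.85 SE, adjusted p = 0.0228). Axin2 and Olfm4 were not called without the COL BRAFp53, SI p53 or SI BRAFp53 culture (adjusted p of 0.0566 to 0.105 and 0.0557 to 0.0697). The stem cell gene Smoc2 and the receptor Lgr4 were not called (adjusted p = 0.384 and 0.36). Of 25 proliferation genes 2 were higher in COL and 4 in SI, with a median log2 fold change of -0.14, and these 24.0% called stood near the 29.6% of all genes tested. Library totals alone gave 6 and 2. Leaving out 1 culture gave 0 to 3 higher in COL (0 without any 1 of the SI cultures) and 2 to 7 in SI (2 without SI p53 or SI BRAFp53, 7 without COL p53). Mki67 was at 324, 176 and 326 CPM in COL and 268, 262 and 262 CPM in SI (adjusted p = 0.866).

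Recombination of the targeted genes had not been induced in these libraries. Trp53 was at 272, 224 and 158 CPM in COL and 285, 165 and 157 CPM in SI (log2 fold change 0.11 ± 0.29 SE, adjusted p = 0.812), and in both tissues the BRAF culture, which had no conditional Trp53 allele, was highest. Braf was at 28.5, 60.9 and 35.1 CPM in COL and 13.7, 19.4 and 16.2 CPM in SI (log2 fold change 1.33 ± 0.30 SE, adjusted p = 0.0169), and its exons overlap a gene on the opposite strand. Without the SI BRAF or the SI BRAFp53 culture Braf was not called, with adjusted p of 0.0531 to 0.0647. The ERK pathway carries growth factor signals through RAF and MEK kinases and induces its own inhibitors. Of 32 genes of the pathway and its feedback, 11 (34.4%) were higher in COL and 5 (15.6%) in SI, against 17.0% and 12.6% of all genes tested. Their median log2 fold change was 0.40. Leaving out the SI BRAF, SI p53 or SI BRAFp53 culture left 7, 7 and 6 higher in COL, and the SI p53 or SI BRAFp53 culture 1 and 2 higher in SI. The ERK phosphatase Dusp6 was at 39.3, 78.8 and 35.9 CPM in COL and 9.34, 14.7 and 26.6 CPM in SI (log2 fold change 1.61 ± 0.45 SE, adjusted p = 0.0358), and the immediate early gene Fos at 58.1, 72.3 and 39.3 CPM and 14.3, 8.14 and 9.85 CPM (log2 fold change 2.39 ± 0.30 SE, adjusted p = 0.00289). Higher in SI were the scaffold Ksr1, at 31.4, 28.1 and 23.1 CPM against 7.72, 3.82 and 5.21 CPM (log2 fold change -2.30 ± 0.29 SE, adjusted p = 0.00287), and the kinase genes Map2k1 (log2 fold change -0.61 ± 0.12 SE, adjusted p = 0.00973) and Map2k2 (log2 fold change -1.18 ± 0.29 SE, adjusted p = 0.0226). Dusp6 was not called without the COL p53, COL BRAFp53, SI BRAF or SI p53 culture (adjusted p of 0.0556 to 0.122), Map2k2 without any 1 of the SI cultures (0.0537 to 0.0752) and Map2k1 without the SI p53 culture (0.0506). The 6 Sprouty and Spred inhibitors tested did not pass the threshold in edgeR. Spry1 was at 9.05, 6.45 and 8.45 CPM in COL and 5.3, 4.8 and 2.88 CPM in SI and Spry4 at 2.14, 4.17 and 2.46 and 1.52, 1.41 and 1.34 CPM (adjusted p = 0.0585 for each), and Spred3 at 1.42, 0.723 and 0.815 and 0.0725, 0.185 and 0.433 CPM (adjusted p = 0.0551), all 3 with every COL culture above every SI culture and called higher in COL by DESeq2. Every COL culture lay above every SI culture in 27.6% of all genes tested. Spry2 was at 37.7, 35.5 and 42.1 and 36.3, 34.5 and 36.4 CPM, and Spred1 and Spred2 overlapped between the tissues (adjusted p = 0.543, 0.293 and 0.381).

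Fetal and regenerative genes, which mark fetal gut epithelium and the repair of injured mucosa, were higher in COL in every member: 21 of 21 were called higher in COL, with a median log2 fold change of 7.10, and 19 to 21 without any 1 culture. Where 10 counts were required in every culture, 12 were called higher in COL. Their summed level was 1660 to 5220 CPM in COL and 148 to 228 CPM in SI. The list was chosen with earlier results of these data known, so its counts are a description and not a test. Clusterin (Clu), a gene of revival stem cells, was at 188, 861 and 484 CPM in COL and 0.103, 0.884 and 0.996 CPM in SI (log2 fold change 9.58 ± 1.05 SE, adjusted p = 0.00205). Ly6a (Sca1), a marker of repairing epithelium, was at 137, 637 and 303 CPM in COL and 1.08, 0.168 and 0.523 CPM in SI (log2 fold change 9.27 ± 0.97 SE, adjusted p = 0.00187), and Anxa1, which limits inflammation, was at 210.4, 833 and 413 CPM and 1.72, 0.286 and 0.865 CPM (log2 fold change 9.0 ± 0.92 SE, adjusted p = 0.00178). In all 3 the COL p53 culture was highest and the COL BRAF culture lowest of the COL cultures. The YAP target Ccn1 was more even, with 13, 15.3 and 11.5 CPM in COL and 1.71, 1.5 and 2.27 CPM in SI (log2 fold change 2.86 ± 0.25 SE, adjusted p = 0.0012). Vsig1, a gene of gastric epithelium, had 27.2, 3.52 and 2.72 CPM in COL, highest in the BRAF culture, and 0 counts in SI, which put its mean at least 386-fold higher in COL.

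Of 25 antimicrobial and inflammatory genes 12 were higher in COL and 4 in SI (median log2 fold change 1.60), with 7 higher in COL without any 1 of the COL p53, COL BRAFp53, SI p53 or SI BRAFp53 cultures and 2 higher in SI without COL BRAFp53. Where 10 counts were required in every culture, the split turned to 4 higher in COL and 5 in SI, with a median of -0.48. Serum amyloid A1 (Saa1) was at 25.8, 382 and 123 CPM in COL and 0.166, 0 and 0 CPM in SI (log2 fold change 11.71 ± 1.59 SE, adjusted p = 0.00354), and the oxidase Duox2 at 20, 31.6 and 37 CPM and 5.36, 1.02 and 1.53 CPM (log2 fold change 3.49 ± 0.65 SE, adjusted p = 0.00927). The lectin Reg3a was higher in SI at 391, 514 and 336 CPM against 0.452, 0.871 and 3.29 CPM (log2 fold change -8.07 ± 0.86 SE, adjusted p = 0.00193), as was Ccl25, the chemokine that draws lymphocytes to the small intestine, at 998, 1270.5 and 1223 CPM against 175, 28.7 and 49.7 CPM (log2 fold change -3.79 ± 0.68 SE, adjusted p = 0.00801). The bactericidal lectin Reg3g was higher in SI (log2 fold change -1.68 ± 0.42 SE, adjusted p = 0.025), but was not called without the COL BRAFp53, SI BRAF or SI BRAFp53 culture (adjusted p of 0.062 to 0.0776).

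Of 12 claudins tested, which seal the space between cells, 5 (41.7%) were higher in COL and 1 (8.33%) in SI, against 17.0% and 12.6% of all genes tested. Without the COL p53, the COL BRAFp53, the SI BRAF or the SI p53 culture 3 were higher in COL. Cldn4 was at 101, 280.0 and 100.4 CPM in COL and 19, 9.88 and 10.3 CPM in SI (log2 fold change 3.62 ± 0.51 SE, adjusted p = 0.00399), and Cldn15, which forms sodium pores in the small intestine, at 634, 632 and 628 CPM in SI and 308, 297 and 166 CPM in COL (log2 fold change -1.30 ± 0.24 SE, adjusted p = 0.00936). Of 8 keratins of simple epithelium 5 were higher in COL and 0 in SI, with 3 without the SI p53 or the SI BRAFp53 culture, whereas Krt20, of differentiated cells, was not called (adjusted p = 0.165). Krt4, a keratin of stratified epithelium, had 17.8, 121 and 82.4 CPM in COL and 0 counts in SI, at least 2559-fold higher in COL (adjusted p = 0.00354). Krt4 is 1 of 20 gastric, pancreatic and squamous markers, of which 6 passed the filter, 2 were higher in COL and 1 in SI. Cela1, an elastase gene, was the other member higher in COL, at 43.3, 60.6 and 37.5 CPM against 13.1, 8.68 and 11.9 CPM in SI (log2 fold change 2.07 ± 0.24 SE, adjusted p = 0.00246), and Atp4a, a subunit of the gastric proton pump, was higher in SI at 2.5, 3.84 and 2.1 CPM against 1.4, 0.347 and 0.565 CPM (log2 fold change -1.87 ± 0.57 SE, adjusted p = 0.0451) but was not called without any 1 culture apart from COL BRAF (adjusted p of 0.0759 to 0.144). The 14 that did not pass were at 0.2 CPM or less in every culture, and the stomach, pancreas and squamous genes Gkn2, Cpa1 and Sox2 had 0 counts in all 6 cultures.

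**Figure D3:**
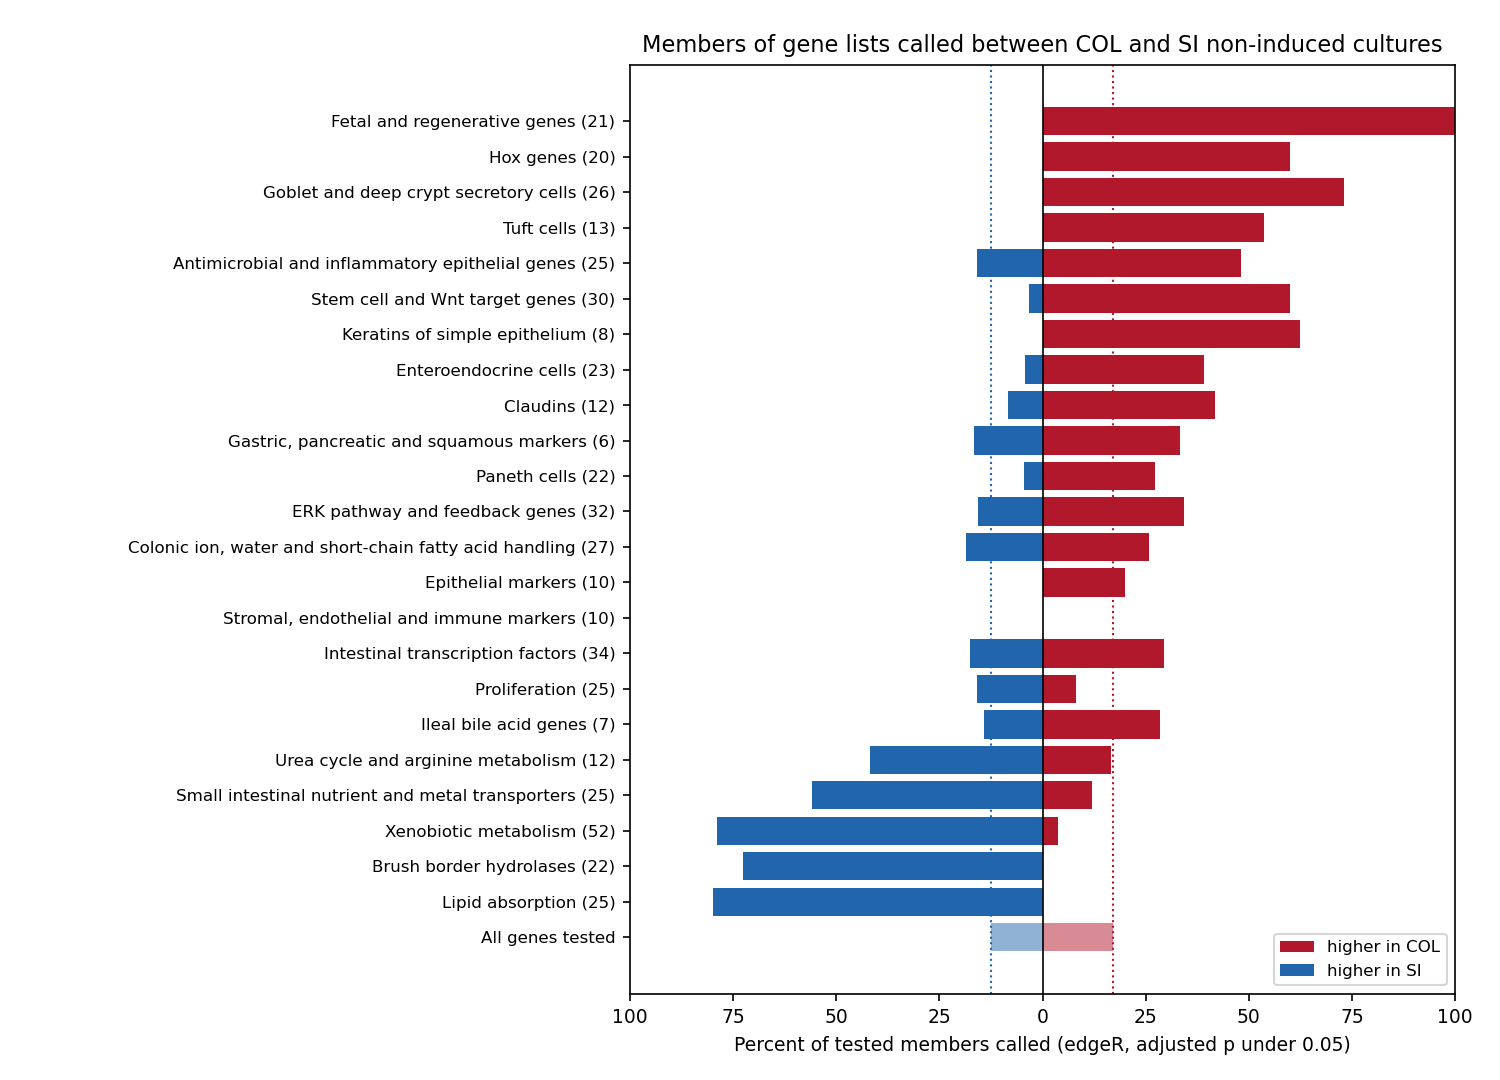
Percent of the tested members of each gene list called higher in COL (red, to the right) or higher in SI (blue, to the left), ordered by median log2 fold change, with the number tested in brackets. Pale bars and dotted lines give all 17789 genes tested, at 17.0% and 12.6%. All 21 fetal genes tested are called higher in COL, and genes of lipid absorption at 80.0% and xenobiotic metabolism at 78.8% higher in SI. The lists were chosen with earlier results of these data known.

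Some of the genes with the largest fold changes were on no list. They were taken from calls whose average log2 CPM reached 3 and whose cultures did not overlap between the tissues. The cultures did not overlap in 5256 of the 5270 calls and in 50.6% of all genes tested. Higher in SI was Mylk3, a myosin kinase gene, which had 24.4, 32.2 and 26.4 CPM in SI and 0.14, 0.0921 and 0.0954 CPM in COL (log2 fold change -7.98 ± 0.28 SE, adjusted p = 0.00022). Its level was even across the 3 SI cultures. Higher in COL was the amino acid transporter Slc6a14, at 197, 919.7 and 296 CPM against 0.124, 0 and 0 CPM in SI (log2 fold change 13.53 ± 1.28 SE, adjusted p = 0.00145). The cadherin Cdh13, at 4.32, 62.1 and 61.5 CPM in COL and 0 counts in SI, was at least 1477-fold higher in COL, and the endotoxin receptor Tlr4 was at 7.66, 23.8 and 16.5 CPM in COL with 0, 0 and 0.0302 CPM in SI.

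The cultures of a tissue differed among themselves, by genotype and donor at once. Among the COL cultures 5870 of 17828 genes tested (32.9%) differed beyond the spread of the 2 libraries of a culture, and among the SI cultures 1276 of 15911 (8.02%). Without 1 COL p53 library the count in COL was 3002 or 3114, and without 1 SI BRAF library the count in SI was 599 or 759. Of the 5270 tissue calls, 1916 (36.4%) also differed among the COL cultures and 595 (11.3%) among the SI cultures. The COL p53 culture was most often the extreme of its tissue at both ends, highest in 2684 and lowest in 2204 of the 5870 genes. So was the SI BRAF culture, lowest in 741 and highest in 484 of the 1276.

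Each culture was then placed between the tissues using genes called without it, where 0 is the mean of the other 2 cultures of its tissue and 1 the mean of the other tissue on the log2 scale. The COL BRAF culture lay at a median of 0.27 over the 2351 genes higher in SI and 0.26 over the 3030 higher in COL. The SI BRAF culture lay at 0.20 over 1764 genes and 0.15 over 2413 genes. The other 4 cultures had medians from -0.09 to 0.08. The BRAF culture of each tissue was therefore the one nearest to the other tissue by this measure, while its median stayed well short of the midpoint.

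**Figure D4:**
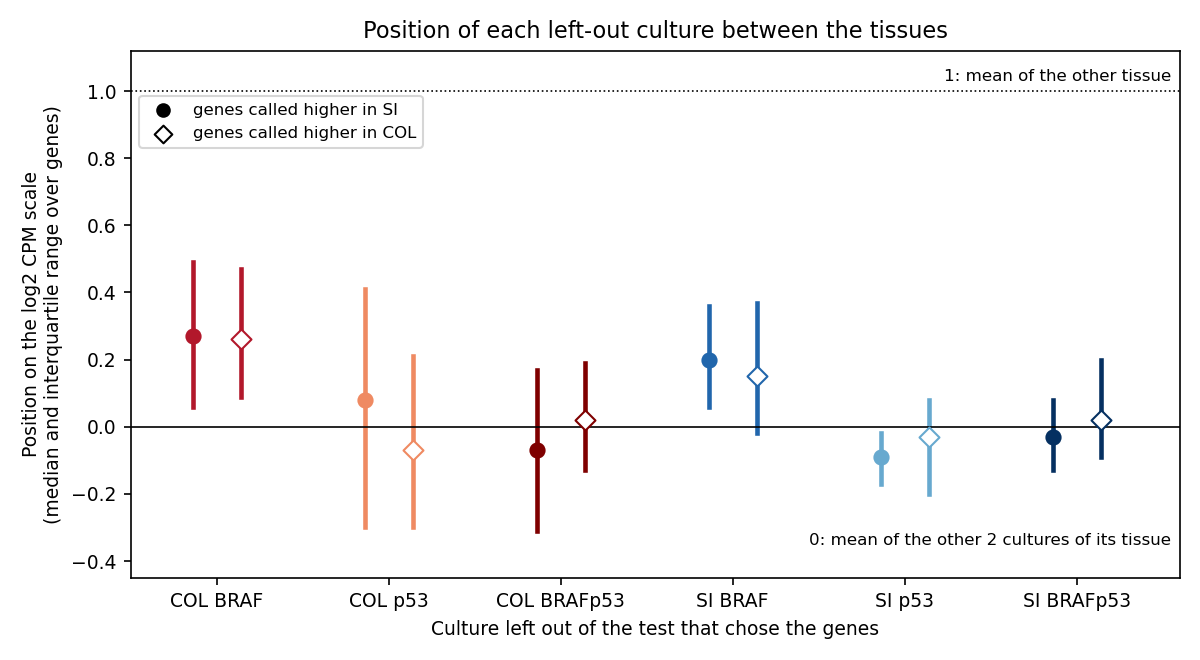
Median and interquartile range of the position of each left-out culture, on a scale where 0 is the mean of the other 2 cultures of its tissue and 1 the mean of the other tissue. Filled circles are genes called higher in SI and open diamonds genes called higher in COL without that culture. The COL BRAF culture has medians of 0.27 and 0.26 and the SI BRAF culture of 0.20 and 0.15.

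Some regional genes carried this difference between cultures. Gata4 was at 48.5 CPM in the COL BRAF culture against 1.48 and 2.31 CPM in the other COL cultures, and without the COL BRAF culture it was called higher in SI (log2 fold change -5.79, adjusted p = 0.000542). Ranges were ranked among genes that differed among the cultures of a tissue and had an average log2 CPM of 3 or more. Both libraries of the highest culture had to lie above the others, and predicted and sex-linked genes were left out. By this rule the genes with the widest range among COL cultures were Aqp8, Fabp1, Gabrp, Nmral1 and Eno1b. Gabrp, a GABA receptor subunit, was at 0.21, 43.7 and 18.6 CPM in COL and 0 counts in SI and was not called without any 1 culture apart from COL BRAF (adjusted p of 0.0532 to 0.0786), and Nmral1, a redox sensor gene, at 0.14, 19.7 and 25.9 CPM in COL and 15.6, 26.1 and 16.1 CPM in SI. Eno1b, an enolase copy of high identity to Eno1, was at 2.6, 236 and 1.95 CPM in COL and 301, 389.7 and 395 CPM in SI, so only the COL p53 culture was close to SI. Among the SI cultures the widest ranges by the same rule were those of Osr2, Reg1, Mmp14, Rps4l and Fras1. Reg1, a secreted lectin, had 22.5, 3256 and 6871 CPM in SI and 4.04, 0.723 and 1.71 CPM in COL (log2 fold change -10.62 ± 2.12 SE, adjusted p = 0.0112), with the SI BRAF culture far below the other SI cultures. Osr2, a zinc finger factor, ran from 100.4, 30.3 and 0.0201 CPM in SI and was 15.6, 99.2 and 97.4 CPM in COL. The duodenal factor Pdx1 was at 0.445, 4.35 and 8.16 CPM in SI and 0.366, 0.205 and 0.749 CPM in COL (log2 fold change -3.29 ± 1.0 SE, adjusted p = 0.0462), and Onecut2 at 17.9, 157 and 149 CPM and 40.8, 39.4 and 52.2 CPM, with the SI BRAF culture lowest of SI in both. Without any 1 culture apart from SI BRAF, Pdx1 was not called (adjusted p of 0.0787 to 0.139), nor was Reg1 without the COL BRAFp53 culture (0.0526).

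**Figure D5:**
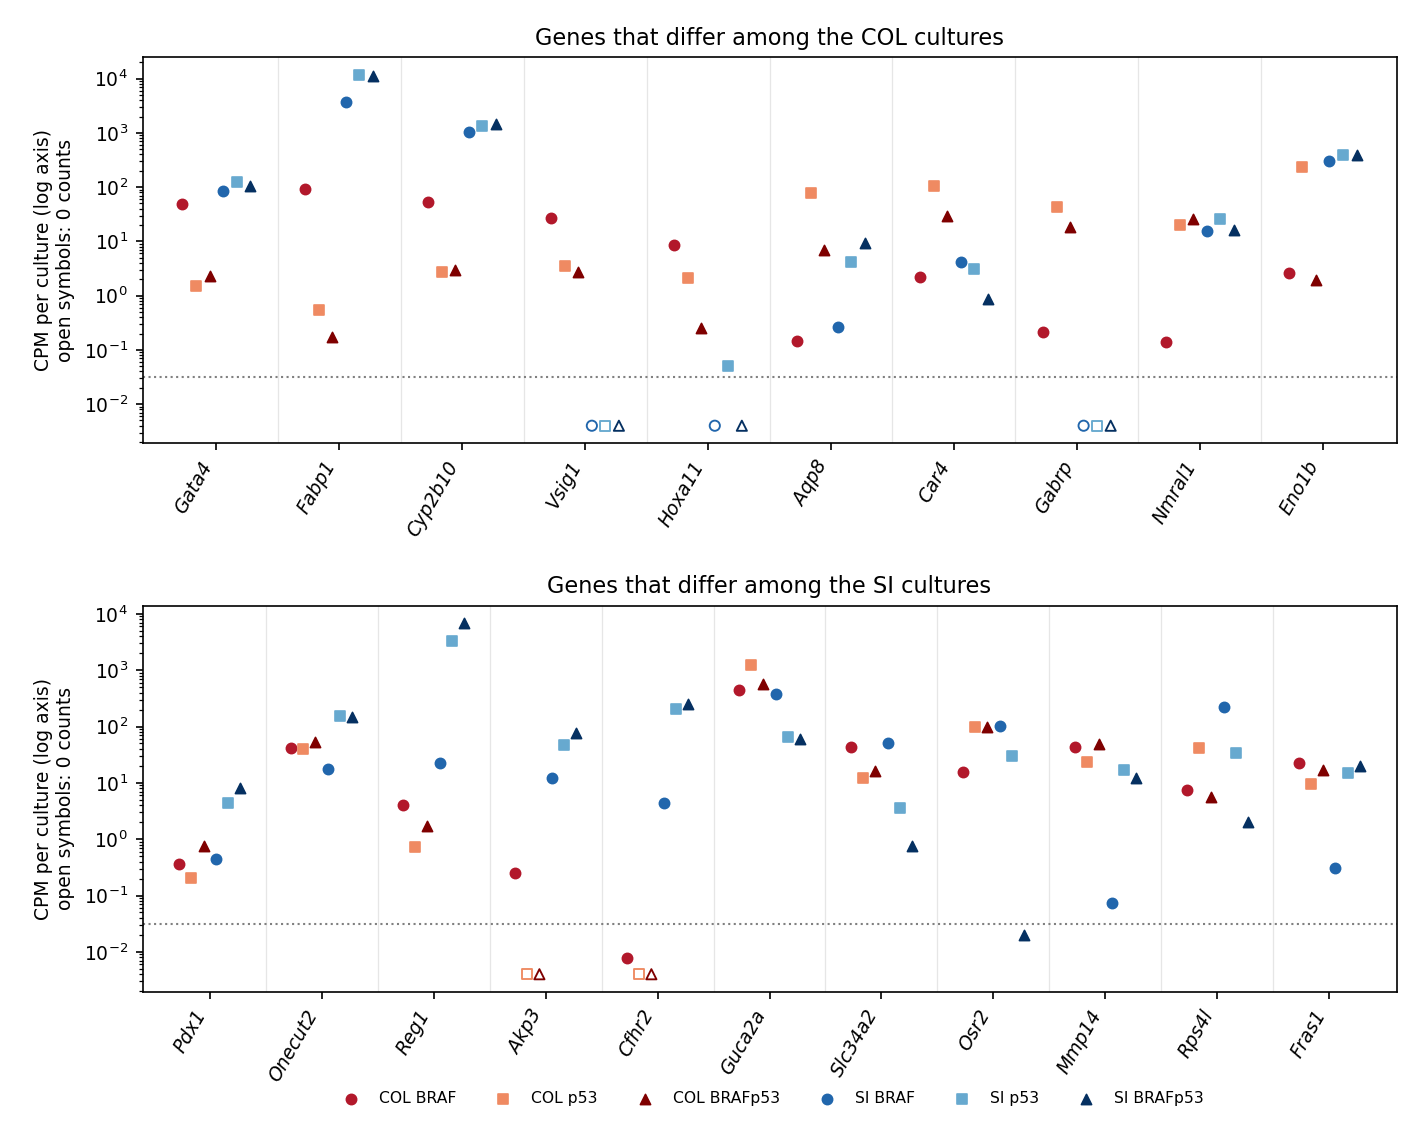
CPM per culture on a log axis for genes that differed among the COL cultures (top) and among the SI cultures (bottom), with open symbols for 0 counts and the dotted line at 0.0311 CPM. The COL BRAF culture stands near the SI cultures for Gata4, and the SI BRAF culture stands near the COL cultures for Pdx1.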

How the data were processed

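The deposited tables hold raw read counts per gene and library, 1 table per tissue, made by the authors without normalization. Per the submitters' processing notes, reads were trimmed with Trimmomatic 0.36 and aligned with STAR 2.5.2b to mm10 (GRCm38), and the notes also name mm9. The annotation and the use of strand in counting are not given in the sources used here, so overlapping genes on opposite strands (26.6% of the calls) and near-identical copies are uncertain. Gene names, coordinates and overlaps came from GENCODE M21, which matched 45143 of 45706 identifiers.

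Both off libraries of each culture were added up. In R 4.3.3, edgeR 4.0.16 was run with filterByExpr, TMM scaling and the quasi-likelihood test, 3 COL against 3 SI cultures, and the p-values were adjusted over all genes tested after Benjamini and Hochberg, with a threshold of 0.05 for a call. Log2 fold changes are COL minus SI. Cultures of 1 tissue were compared with the same test on their single libraries, where 2 libraries of a culture had a Pearson r of 0.9584 to 0.9792 and differed beyond sampling noise. DESeq2 1.42.0 and limma 3.58.1 were alternatives. The scripts were tested on simulated counts.

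The comparison, its 23 gene lists and the rule for named genes were chosen with earlier results of these data known. Genes named are Braf and Trp53, list members, up to 15 calls per direction with the largest fold change (average log2 CPM of 3 or more, no overlap, no predicted or sex-linked genes), and up to 5 genes per tissue with the widest range among its cultures. The last differed among those cultures, had an average log2 CPM of 3 or more and were not predicted or sex-linked. Both libraries of their highest culture lay above the others. The sex-linked genes were chosen after their values were seen. Libraries with induced recombination were not used here. Some genes are not reported here.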

Additional observations from a re-analysis of the deposited data

How the results depend on the processing

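The tissue comparison was repeated under 29 alternatives, and 0 genes called in both an alternative and the original comparison had opposite signs in any of them. The genotype pairs as replicate block gave 3475 calls (2010 higher in COL and 1465 in SI), of which 3410 were among the original 5270. Of the 5270 calls, 3470 also reached an absolute log2 fold change of 1 (2240 higher in COL and 1230 in SI). Same-numbered libraries shared only a number, and the sources are unclear on whether same-genotype cultures of the tissues shared a donor, while those of p53 and BRAFp53 differed in sex-linked counts. The correlations of their deviations between the tissues were -0.08, -0.02 and -0.09 for BRAF, p53 and BRAFp53, so the unpaired comparison stands in the report. Library totals alone gave 4567 and 1411, upper-quartile factors 3375 and 1970, RLE factors 2878 and 2355, and no filter on low counts 2822 and 2019. DESeq2 called 6528 genes, limma-voom 5547, and limma-voom on the 12 libraries 5991, or 5776 with a replicate block. Without 1 culture or library the calls ranged from 2479 (without SI p53) to 5381 (without COL BRAF), those higher in COL from 1489 to 3030 and those higher in SI from 990 to 2543; the SI p53, SI BRAFp53 (2781) and COL BRAFp53 (3586) cultures held most of the loss, and the cause was not tested. The count of genes differing among COL cultures was 5824 with a replicate block and 3002 to 6310 without 1 library, and among SI cultures 1017 with the block, 2316 without a filter, 1972 in DESeq2 and 599 to 1175 without 1 library.

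Medians that turned were those of antimicrobial genes (-0.48 with 10 counts in every culture), proliferation (0.11 with library totals alone) and gastric, pancreatic and squamous markers (-0.05 with 10 counts, -0.08 in limma-voom on 12 libraries, -0.16 to 0.98 without 1 culture or library). Of 131 genes named and tested, 88 were called and 0 of these turned. The alternative fits numbered 28: 47 genes were called in all of them, 11 in every one that tested them (the filter of 10 counts in every culture removed them), and 30 were not called in at least 1. Genes that were not called and turned without 1 culture or library had log2 fold changes of -0.41 to 3.69 (Aqp8), -2.67 to 14.68 (Eif2s3y), -0.12 to 1.09 (Fras1), -0.02 to 1.09 (Hoxa2), -0.10 to 0.27 (Mki67), -0.95 to 0.22 (Nmral1), -0.25 to 0.34 (Pdgfrb), -0.39 to 0.84 (Pecam1, with -0.19 in limma-voom on 12 libraries), -3.74 to 0.03 (Rps4l) and -0.10 to 0.42 (Trp53). With all cultures, Gip was not called in DESeq2, Atp4a, Gip and Gm14851 with upper-quartile factors, these and Map2k1, Map2k2, Mep1b and Pdx1 with library totals alone, and Cdh13, Cyp1b1, Gabrp, Nr0b2, Pdx1, Reg1, Saa1 and Xist in limma-voom on summed cultures (Pdx1 and Xist also on the 12 libraries). With the replicate block Atp4a, Axin2, Dusp6, Gip, Hoxa10, Nr0b2, Pdx1 and Reg1 were not called in edgeR, nor Pdx1, Reg1 and Xist in limma-voom. Of named genes not called in edgeR, DESeq2 with all cultures called Car4, Cdx1, Lyve1, Slc26a3, Spred3, Spry1, Spry4, Sst and Zg16. Limma-voom on summed cultures called Ddx3y, Eno1b, Gata4, Hoxa7, Hoxa9, Kdm5d, Slc26a3, Spred3, Spry1 and Uty. The tissue test measured the spread of 3 cultures per tissue, and the part of depth in its precision was not tested. Levels at or under 3 counts were treated as not detected, for counting error only.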

Other observations

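The Y-linked gene Eif2s3y had 0.0624, 71.5 and 7.57 CPM in the COL BRAF, p53 and BRAFp53 cultures and 70.6, 0 and 0 CPM in the SI cultures, so that it was near 0 in the COL BRAF culture, in which the Y-linked genes Uty (25, 27.4 and 28 CPM in COL and 12.6, 0 and 0 CPM in SI) and Kdm5d (18.1, 17.1 and 18.7 CPM and 18.8, 0 and 0 CPM) were read at the level of the other COL cultures. These genes were chosen after their values were seen. SI p53 and SI BRAFp53 held Xist and no counts of these Y-linked genes, while COL p53 and COL BRAFp53 held Y-linked counts, so that for these genotypes the libraries labelled COL and SI differed in the sex they showed. Car1, Hoxb9 and Lct followed the tissue labels in these cultures.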
